A study of Mus musculus with 2 samples.

Results

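The genes of the translation initiation factors were compared between hindlimb muscle of a control mouse sample and of a sample with Srsf2 deleted in the muscle lineage. They were taken as the rows of the expression table that are typed as mRNA and whose symbol begins with Eif and a digit, which gave 56 genes of 44787 rows, of which 22669 are mRNA. The control library came from a mouse in which both alleles of Srsf2, the gene of a serine- and arginine-rich splicing factor, are flanked by loxP sites (Srsf2 flox/flox) and which carries no Cre. The knockout library came from a Srsf2 flox/flox mouse that also carried MyoD-Cre, which drives Cre recombinase in the myogenic lineage. Only the knockout library carries the Cre allele, so an effect of that allele and the loss of Srsf2 cannot be told apart. The sources used here give no age, no sex and no number of animals per library. Since each genotype had 1 library, differences cannot be set against a spread between replicates and were not tested, and words such as "higher" apply to these 2 libraries alone.

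Initiation factors bring the small ribosomal subunit, the initiator tRNA and an mRNA together and position them at a start codon. The factor eIF2 carries the initiator tRNA, eIF2B recharges eIF2 with GTP, and 4 kinases that phosphorylate eIF2 slow this step under stress. The cap-binding assembly eIF4F, made of eIF4E, eIF4G and the helicase eIF4A, recruits the mRNA, and the 4E-binding proteins compete with eIF4G for eIF4E under the control of mTOR. The complex eIF3 links both sides, eIF1 and eIF1A hold the scanning complex open, and eIF5 and eIF5B act at start codon recognition and subunit joining. In skeletal muscle these steps are known as a point where feeding, load and stress change protein synthesis.

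The control library held 69422626 reads, of which 81.4% were mapped, and the knockout library 76702198 reads, of which 80.0% were mapped. Values are FPKM, a count of reads scaled to transcript length and to the counted reads of the library, so that levels can be set side by side between genes. Srsf2 itself was at 31.1 FPKM in the control library and 19.4 FPKM in the knockout library, a ratio of 0.624 with a 95% counting interval of 0.567 to 0.685. A difference below is log2((knockout FPKM + 1)/(control FPKM + 1)), and a gene is called measured if either library reached 1 FPKM. Over all 13175 measured genes the median difference was 0.18, and this is called the median gene. The median ratio of knockout to control, with no pseudocount, was 1.16. These are 2 references that do not coincide. Genes counted above or below the median gene are placed by the difference, and counting intervals are placed against the median ratio. Eif4ebp1, for one, lay above the first with a difference of 0.1891 and below the second with a ratio of 1.145. The sign of a small difference depends on how the libraries are scaled, and the place against the median gene depends on it far less, though it depends on the filter on low values, so both are given.

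The libraries also differed in the levels of markers of several cell types. All 11 markers of fast muscle fibres were measured in both libraries, which goes with the labelled tissue, and their summed level was 18014 FPKM in the control library and 10633 FPKM in the knockout library. All 15 keratinocyte markers were measured, and 14 of them were higher by at least 2-fold, against 2.68% of all measured genes. The summed level of the 15 was 14.2 FPKM against 2108 FPKM. Of 12 adipocyte markers 11 were measured and 7 were higher by at least 2-fold, with a summed level of 333 FPKM against 757 FPKM. The 1 measured adipocyte marker that was lower, Plin4, was at 6.57 FPKM in the control library and 3.17 FPKM in the knockout library. The summed level of 8 erythroid markers was 1272 FPKM against 2770 FPKM, and that of 7 slow fibre markers 1567 FPKM against 1571 FPKM. For 5 embryonic and perinatal muscle markers it was 18023 FPKM against 10002 FPKM, with 3 markers higher and 2 lower. Most of that sum is Myh8, at 15047 FPKM in the control library and 6684 FPKM in the knockout library. No marker of these lists was at 0 in either library. Initiation factors are needed in every cell type, and the part of this difference in the values below was not tested. In such bulk samples, fewer cells of a type and less RNA per cell cannot be told apart.

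Of the 56 genes 52 were measured, and their median lay close to the median gene at the filter of 1 FPKM. Their median difference was 0.19, which is 0.01 above that of all measured genes. Of the 52 genes 28 lay above the median gene and 24 below it, where 50% of all measured genes lie above by construction. With a pseudocount of 5 FPKM 34 of 52 lay above it. With no filter on low values 39 of 53 did, with a median 0.14 above that of all genes. With a pseudocount of 0.1 FPKM 25 of 52 did, and with a filter of 5 FPKM 23 of 48. Under median of ratios, TMM and scaling without the 50 most abundant genes 24, 25 and 24 of 52 did. Under these 3 scalings the median minus that of all genes was -0.0136, -0.0111 and -0.0163. None was higher or lower by 2-fold, against 2.68% of all measured genes that were higher and 0.744% that were lower. By a 1.5-fold rule 1 gene, Eif1a, was higher and none was lower, against 9.15% and 2.91% of all measured genes. That call was lost under each of these 3 scalings and with a pseudocount of 5 FPKM. With a pseudocount of 0.1 FPKM 2 genes were higher and 1 lower. Differences ran from -0.42 for Eif2d to 0.71 for Eif1a.

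By factor group, medians of the difference lay between 0.13 and 0.30, close to the median gene at 0.18. The 5 measured eIF1 genes had a median of 0.26 with 4 above the median gene, and the 4 eIF5 genes 0.22 with 2 above. The 5 genes of eIF2 and its relatives had a median of 0.17 with 2 above, the 5 eIF2B genes 0.13 with 2 above, and the 4 eIF2 kinases 0.28 with 2 above. The 14 eIF3 genes had a median of 0.18 with 7 above, and the 14 eIF4 genes, binding proteins included, 0.19 with 8 above. Each group of more than 1 gene held members on both sides of the median gene, and the single eIF6 gene lay at 0.30.

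**Figure D1:**
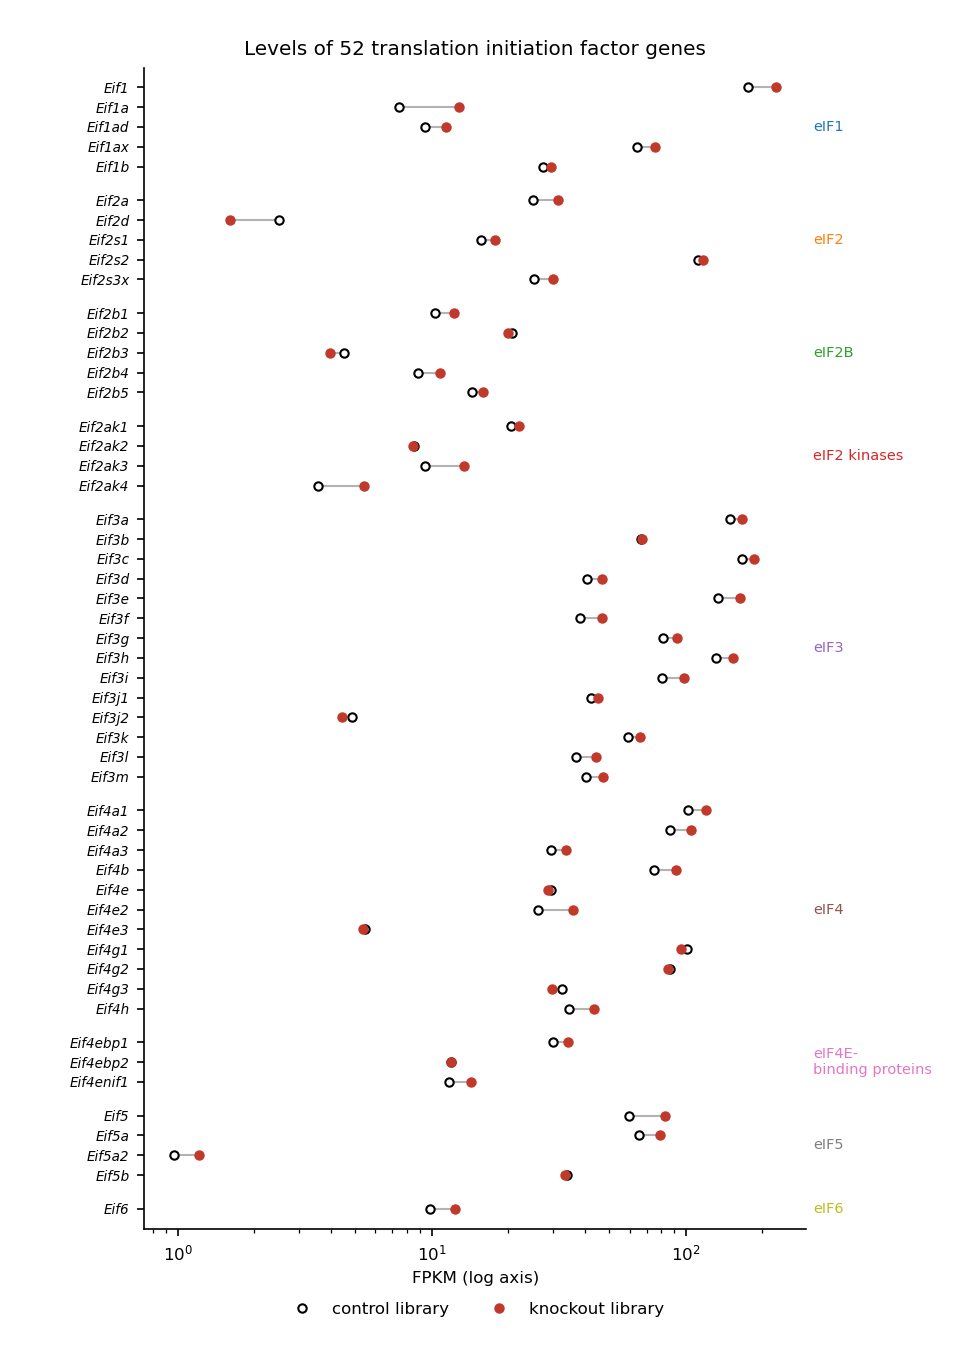
Levels of the 52 measured initiation factor genes in FPKM on a log axis, with 1 open circle for the control library and 1 filled circle for the knockout library, grouped by factor. Levels run from 0.969 FPKM for Eif5a2 in the control library to 227 FPKM for Eif1 in the knockout library, and in most genes the 2 circles lie close to each other against this range.

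The genes were expressed at high levels for mRNA genes. Their median level was 31.3 FPKM in the control library and 34.1 FPKM in the knockout library, and 47 of the 52 lay above the median measured mRNA gene of the control library. Together they took 0.875% of the summed FPKM of mRNA genes in the control and 0.952% in the knockout library. Of the 52 genes 44 (84.6%) lay within 1.2-fold of the median gene, against 64.2% of measured mRNA genes. That count was chosen after the values were seen, and more reads stand behind genes at high levels. The 4 genes not measured were Eif1-ps, Eif2s3y and Eif4e1b, all listed at 0 in both libraries, and Eif4ebp3 at 0.847 and 0.743 FPKM. Eif2s3y lies on the Y chromosome and Eif4e1b is known as an oocyte form of eIF4E.

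Counting error was small for most of these genes, so their ratios could be placed against the median ratio of 1.16. The 95% counting interval lay wholly above that ratio for 11 of the 52 genes, wholly below it for 18 and spanned it for 23. Among all 12828 genes with an interval the shares were 26.2% above and 25.9% below, against 21.2% and 34.6% of these genes. Genes with more reads have narrower intervals, and these genes have more reads than most. The values of 19 of the 52 genes hold fractions of a read, so their read numbers are uncertain. Of these 19, 3 intervals lay above and 10 below. Of the 33 genes with whole reads, 8 lay above and 8 below. The intervals cover counting error alone and say nothing of the spread between animals. The 11 genes above were Eif1, Eif1a, Eif2a, Eif2ak3, Eif2ak4, Eif3e, Eif4a2, Eif4b, Eif4e2, Eif4h and Eif5. The 18 genes below were Eif2ak1, Eif2ak2, Eif2b2, Eif2b3, Eif2d, Eif2s2, Eif3a, Eif3b, Eif3c, Eif3j1, Eif3j2, Eif4e, Eif4e3, Eif4ebp2, Eif4g1, Eif4g2, Eif4g3 and Eif5b.

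**Figure D2:**
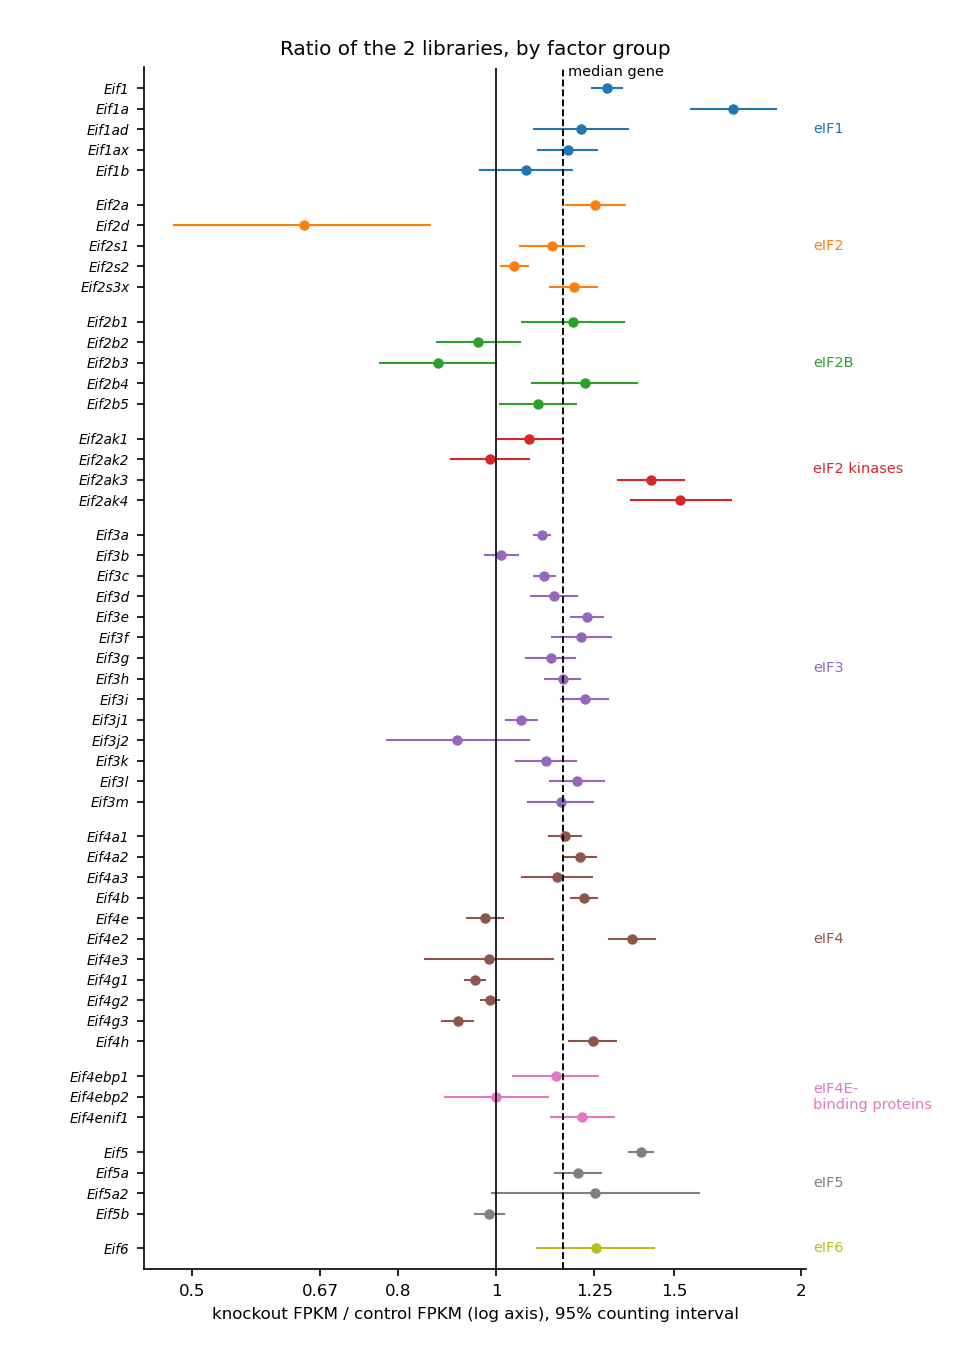
Ratio of knockout to control FPKM for each measured initiation factor gene on a log axis, with points for the ratio and bars for the 95% counting interval. The solid line marks a ratio of 1, and the dashed line, labelled median gene, marks the median ratio. Eif1a, Eif2ak4, Eif2ak3, Eif5 and Eif4e2 lie farthest to the right and Eif2d farthest to the left.

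Many mRNAs of the translation machinery are known to begin with a C followed by a run of C and T bases, the terminal oligopyrimidine start through which mTOR and Larp1 act. The starts of these genes are shown for that reason, as 20 bases before and 10 bases from the first transcribed base in RefSeq (GRCm38.p6), with the run of C and T bases from the first transcribed base in capitals. The first 2 genes are the ones that begin with a C and 4 bases that are each C or T, and the others are genes with high or low differences named below.
Eif2s3x, chrX:94212642-94212671, minus strand: ggcggctgccgagcattttcCTTTTCTCTC
Eif3f, chr7:108934395-108934424, plus strand: gctcttctgttctaggctctCTCTCTTTCT
Eif2ak4, first of 2 starts, chr2:118388597-118388626, plus strand: actccgactcgaggccccgcCCTCagttcg
Eif2ak4, second start, chr2:118389092-118389121, plus strand: cacccttcgtccttccaaccattcttcccc
Eif2ak3, chr6:70844495-70844524, plus strand: ccaatcgcagagcagacgcaCggaaccctc
Eif5, chr12:111538081-111538110, plus strand: agcgtgagatcgacgtgcatgcgagccaat
Eif2d, chr1:131153187-131153216, plus strand: cgctgcgtcagttccgggccagcatcaggg

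Of the 52 measured genes 42 had a start in the RefSeq table, and 2 of them (4.76%) began with a C and 4 bases that are each C or T, read on the transcribed strand. The share was 2.51% of all 32851 start windows and 3.04% of the measured mRNA genes found there. Eif2s3x, the gamma subunit of eIF2, was at 25.3 FPKM in the control library and 30.1 FPKM in the knockout library. Eif3f, a subunit of eIF3, was at 38.4 FPKM and 46.7 FPKM. Their differences, 0.25 and 0.27, had a median of 0.26, and the 40 genes without such a start had a median of 0.18. This gap of 0.08 rests on 2 genes. Measured mRNA genes with and without such a start had medians of 0.22 and 0.18. The gap among the initiation factors was 0.03 (0.0297) when a run of 5 pyrimidines within 5 bases of the start was counted. That run was found in 15 genes (35.7%) and not in 27, against 31.2% of measured mRNA genes. Eif2s3x and Eif3f both lay above the median gene, and so did 20 of the other 40. Annotated starts may lie some bases away from the start used in muscle, and the absence of these letters says nothing more than that they are not at the annotated base.

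Among the factors of scanning and start codon choice, ratios ran from 0.985 for Eif5b to 1.72 for Eif1a. Eif1, the factor that guards the accuracy of the start codon, was the most abundant of all 52 genes at 176 FPKM in the control library and 227 FPKM in the knockout library, a ratio of 1.29 (95% interval 1.24 to 1.33). Its close relative Eif1b was at 27.5 FPKM and 29.4 FPKM, a ratio of 1.07 (0.963 to 1.19). Of the pair, Eif1 lay above the median ratio and the interval of Eif1b spanned it. Eif1a (chromosome 18, 46597704 to 46610225, plus strand) encodes eIF1A, which opens the small subunit for scanning. It was at 7.44 FPKM in the control library and 12.8 FPKM in the knockout library, a difference of 0.71 and a ratio of 1.72 (1.56 to 1.89), and it was the gene past the 1.5-fold rule with the values as deposited, a call lost under the 3 other scalings. Eif1ax, the X-linked gene of the same factor, was far more abundant at 64.0 FPKM and 75.3 FPKM, a ratio of 1.18 (1.10 to 1.26) that spanned the median ratio. Eif1ad, named for an eIF1A domain, was at 9.40 FPKM and 11.4 FPKM.

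Eif5 (chromosome 12, 111538101 to 111546753, plus strand) encodes the factor that makes eIF2 hydrolyse its GTP once the start codon is found. It was at 59.7 FPKM in the control library and 83.0 FPKM in the knockout library, a difference of 0.47 and a ratio of 1.39 (1.35 to 1.43), from 8418 and 12313 reads. Eif5b, the GTPase that joins the large subunit, was at 34.0 FPKM and 33.5 FPKM, a ratio of 0.985 (0.953 to 1.02), below the median ratio. The 2 factors of late initiation thus lay on opposite sides of the median gene. The ratio of Eif1 to Eif5 within a library was 2.95 in the control and 2.73 in the knockout library, a quotient of 0.926 (0.886 to 0.968), in a pair chosen after the values were seen.

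The 3 subunits of eIF2 lay near the median gene. Eif2s1, the alpha subunit that carries the regulatory phosphorylation site, was at 15.7 FPKM in the control library and 17.8 FPKM in the knockout library, a ratio of 1.14 (1.06 to 1.22). Eif2s2, the beta subunit, was at 112 FPKM and 116 FPKM, a ratio of 1.04 (1.01 to 1.08), below the median ratio. Eif2s3x had a ratio of 1.19 (1.13 to 1.26), and Eif2s1 and Eif2s2 changed side of the median gene under other settings. The beta subunit was thus listed at several times the level per length of the other subunits in both libraries, but its values hold fractions of a read, as when reads are divided among similar loci.

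Among genes named for eIF2 that are not subunits of it, 2 that deliver tRNA by other routes lay on opposite sides. Eif2a, an initiator tRNA-binding protein used on some mRNAs, was at 25.0 FPKM in the control library and 31.3 FPKM in the knockout library, a ratio of 1.25 (1.17 to 1.34). Eif2d (chromosome 1, 131153207 to 131172234, plus strand), which acts in non-canonical initiation and in recycling, was at 2.50 FPKM and 1.61 FPKM. Its difference of -0.42 was the lowest of the 52 genes, with a ratio of 0.645 (0.480 to 0.859). It is also among the least expressed of them, with 121 and 82 reads after rounding down, and its values hold fractions of a read.

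The 5 subunits of eIF2B, the exchange factor of eIF2, had a median difference of 0.13, with 2 above and 3 below the median gene. Eif2b5, the catalytic epsilon subunit, was at 14.4 FPKM in the control library and 15.9 FPKM in the knockout library, a ratio of 1.10 (1.01 to 1.20). Eif2b3, the gamma subunit and its partner in the catalytic part, was at 4.53 FPKM and 3.97 FPKM, a ratio of 0.876 (0.768 to 1.00). Eif2b2 of the regulatory part, the beta subunit, was at 20.8 FPKM and 19.9 FPKM, a ratio of 0.960 (0.873 to 1.06). The intervals of Eif2b2 and Eif2b3 lay below the median ratio, and those of the other 3 spanned it. The remaining regulatory subunits Eif2b1 and Eif2b4 had ratios of 1.19 (1.06 to 1.34) and 1.22 (1.09 to 1.38).

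The 4 eIF2 kinases were divided into 2 above and 2 below the median gene, and of these Eif2ak1 changed side under other settings. Eif2ak4 (chromosome 2, 118389112 to 118475234, plus strand) encodes GCN2, which senses uncharged tRNA. It was at 3.56 FPKM in the control library and 5.41 FPKM in the knockout library, a difference of 0.49 and a ratio of 1.52 (1.36 to 1.71). Eif2ak3 (chromosome 6, 70844527 to 70905240, plus strand) encodes PERK, the kinase of endoplasmic reticulum stress, and was at 9.44 FPKM and 13.4 FPKM, a ratio of 1.42 (1.32 to 1.54). Neither start shown above for Eif2ak4, and not that of Eif2ak3, has the C and 4 pyrimidines at the annotated base.

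The other 2 kinases had lower ratios. Eif2ak1 (HRI, which responds to heme) was at 20.5 FPKM in the control library and 22.0 FPKM in the knockout library, a ratio of 1.08 (1.00 to 1.16). Eif2ak2 (PKR, which binds double-stranded RNA) was at 8.54 FPKM and 8.43 FPKM, a ratio of 0.987 (0.903 to 1.08). Set against Eif2ak2 within each library, in pairs chosen after the values were seen, Eif2ak4 was at 0.416 of it in the control and 0.642 of it in the knockout library, a quotient of 1.54 (1.34 to 1.78). The quotient for Eif2ak3 against Eif2ak2 was 1.44 (1.29 to 1.62). Eif2ak1 was the most abundant of the 4 kinases in both libraries and Eif2ak4 the least.

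Of 6 genes that regulate these kinases or reverse their action, 4 lay above and 2 below the median gene, with a median difference of 0.38. By the 1.5-fold rule 1 was higher, against 9.15% of all measured genes, a call lost under the 3 other scalings. That gene was Ppp1r15a (GADD34, a stress-induced subunit of the eIF2 phosphatase), at 15.7 FPKM in the control library and 26.8 FPKM in the knockout library, a ratio of 1.71 (1.58 to 1.85). Dnajc3, an inhibitor of PERK, was at 13.7 FPKM and 18.7 FPKM, a ratio of 1.36 (1.28 to 1.44). Impact, an inhibitor of GCN2, was at 4.78 FPKM and 6.72 FPKM, a ratio of 1.41 (1.27 to 1.56). Gcn1l1, which activates GCN2, was at 7.01 FPKM and 7.18 FPKM, Nck1 at 6.70 FPKM and 7.37 FPKM, and Ppp1r15b, the constitutive subunit of the phosphatase, at 9.40 FPKM and 12.2 FPKM. The lists of the kinases and of their regulators therefore both held members on either side of the median gene.

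The subunits of eIF3 differed little between the libraries and by similar amounts. Leaving aside Eif3j1 and Eif3j2, the 12 subunit genes had ratios from 1.01 for Eif3b to 1.23 for Eif3e, a range of differences of 0.28, and the difference of each was above 0 with the values as deposited. Against the median gene, 7 of the 12 lay above and 5 below, so this shared sign does not hold relative to the other genes. Their median difference was 0.20. Their levels spanned 36.9 FPKM for Eif3l to 166 FPKM for Eif3c in the control library, a ratio of 4.50 between highest and lowest, and the ratio was 4.17 in the knockout library.

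Within eIF3 a few subunits could be placed by counting error. Eif3e was at 133 FPKM in the control library and 164 FPKM in the knockout library, a ratio of 1.23 (1.19 to 1.27), the one eIF3 gene with its interval above the median ratio. Eif3b, part of the scaffold, was at 66.3 FPKM and 67.1 FPKM, a ratio of 1.01 (0.974 to 1.05), below it. Eif3a, the large scaffold subunit, was at 149 FPKM and 166 FPKM, a ratio of 1.11 (1.09 to 1.13), and Eif3c at 166 FPKM and 185 FPKM, a ratio of 1.12 (1.09 to 1.14). Both intervals lay below the median ratio, but Eif3a and Eif3c changed side of the median gene under other settings. The remaining 8 subunits, Eif3d, Eif3f, Eif3g, Eif3h, Eif3i, Eif3k, Eif3l and Eif3m, had ratios of 1.12 to 1.22 with intervals that spanned the median ratio.

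Eif3j1, a loosely bound subunit, was at 42.4 FPKM in the control library and 44.9 FPKM in the knockout library, a ratio of 1.06 (1.02 to 1.10). Eif3j2 was at 4.85 FPKM and 4.44 FPKM, a ratio of 0.916 (0.780 to 1.08). The table lists both genes at the same span of chromosome 2, and the values of both hold fractions of a read. No source used here says how the authors divided reads between them, so these 2 values are uncertain.

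In the cap-binding assembly, the eIF4G scaffolds and eIF4E lay below the median gene, and the helicase eIF4A with its helpers lay above it. Eif4e, the cap-binding subunit, was at 29.5 FPKM in the control library and 28.8 FPKM in the knockout library, a ratio of 0.975 (0.935 to 1.02). Eif4g1, the main scaffold, was at 101 FPKM and 96.0 FPKM, a ratio of 0.953 (0.932 to 0.975). Eif4g3 (chromosome 4, 138105332 to 138207081, plus strand), a second scaffold, was at 32.5 FPKM and 29.7 FPKM, a ratio of 0.916 (0.884 to 0.949). Eif4g2, an eIF4G relative that does not bind eIF4E, was at 86.5 FPKM and 85.2 FPKM, a ratio of 0.985 (0.965 to 1.01). All 4 intervals lay below the median ratio, and these genes stayed below the median gene under every setting tried. With the values as deposited the intervals of Eif4g1 and Eif4g3 also lay below 1.

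The helicase genes had ratios near or above the median ratio. Eif4a1 was at 102 FPKM in the control library and 120 FPKM in the knockout library, a ratio of 1.17 (1.13 to 1.21), and Eif4a2 at 86.7 FPKM and 105 FPKM, a ratio of 1.21 (1.17 to 1.26). Eif4b and Eif4h, which stimulate the helicase, had ratios of 1.22 (1.19 to 1.26) and 1.25 (1.18 to 1.31), from 75.2 FPKM to 91.8 FPKM and from 34.8 FPKM to 43.4 FPKM. Eif4a3, a core protein of the exon junction complex that splicing deposits on mRNA, was at 29.4 FPKM and 33.7 FPKM, a ratio of 1.15 (1.06 to 1.24). Within a library, the ratio of Eif4g1 to Eif4a1 was 0.986 in the control and 0.804 in the knockout library, a quotient of 0.815 (0.781 to 0.851), in a pair chosen after the values were seen.

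The 2 main cap-binding genes exchanged order. Eif4e2 (chromosome 1, 87213908 to 87232393, plus strand) encodes 4EHP, a cap-binding protein that does not bind eIF4G and represses the mRNAs it is brought to. It was at 26.3 FPKM in the control library and 35.8 FPKM in the knockout library, a difference of 0.43 and a ratio of 1.36 (1.29 to 1.44). Eif4e was the higher of the pair in the control library, at 1.13 times Eif4e2, and the lower in the knockout library, at 0.804 times. The quotient of these ratios was 0.715 (0.669 to 0.764). The values of both genes hold fractions of a read, so the number of reads behind this interval is uncertain. Gigyf2, the partner through which 4EHP represses, was at 16.0 FPKM and 13.4 FPKM. Eif4e3, another cap-binding form, was at 5.45 FPKM and 5.36 FPKM, a ratio of 0.984 (0.850 to 1.14).

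**Figure D3:**
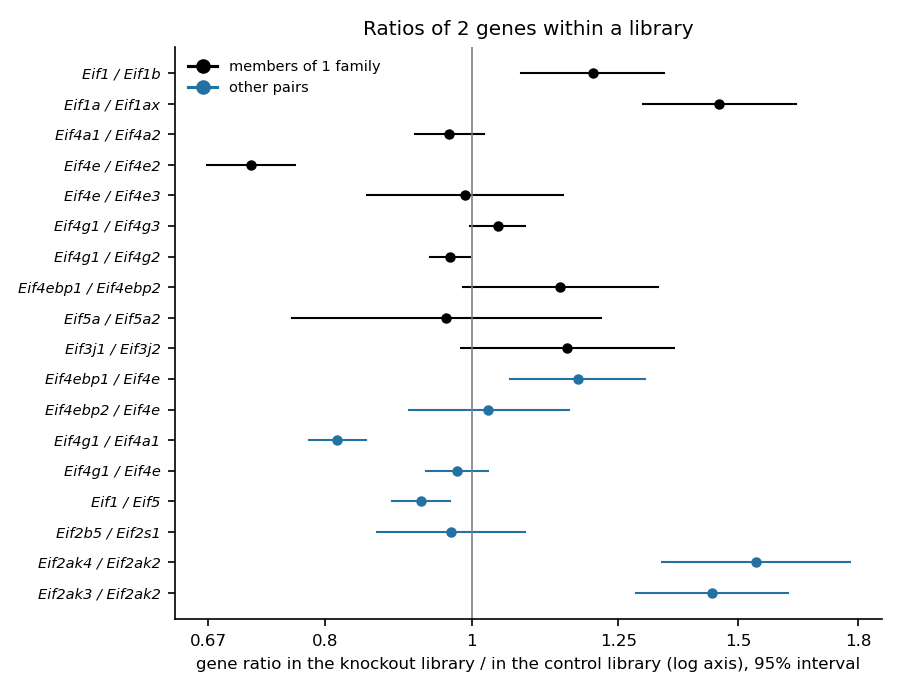
Quotient of the FPKM ratio of 2 genes in the knockout library to the same ratio in the control library, on a log axis, with bars for the 95% counting interval; a ratio within a library does not depend on the scaling between libraries. Black marks members of 1 family and blue the pairs chosen after values were seen. Eif4e to Eif4e2 lies at 0.715 and Eif1a to Eif1ax at 1.46, while Eif4a1 to Eif4a2 spans 1.

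Of 11 pairs listed within families, 10 could be compared, since Eif2s3y was listed at 0, and for 4 the counting interval excluded 1. Apart from Eif4e with Eif4e2, these were Eif1a with Eif1ax, whose quotient was 1.46 (1.30 to 1.64), Eif1 with Eif1b at 1.20 (1.08 to 1.34) and Eif4g1 with Eif4g2 at 0.968 (0.939 to 0.998). Of the summed level of Eif1a and Eif1ax, Eif1a made up 10.4% in the control and 14.5% in the knockout library. The quotient of Eif4a1 to Eif4a2 was 0.967 (0.917 to 1.02) and that of Eif4g1 to Eif4g3 1.04 (0.998 to 1.09). Intervals that hold 1 do not show that a balance was the same. The share of other gene pairs whose interval excludes 1 was not counted. The values of Eif1, Eif4g1 and Eif4g2, like those of Eif4e and Eif4e2, hold fractions of a read. The reads behind the intervals of these pairs are therefore uncertain.

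Of the 3 measured 4E-binding proteins, 2 lay above the median gene and 1, Eif4ebp2, below it like Eif4e. Eif4ebp1, the insulin- and mTOR-responsive inhibitor, was at 30.1 FPKM in the control library and 34.4 FPKM in the knockout library, a ratio of 1.15 (1.04 to 1.26). Eif4ebp2 was at 11.95 FPKM in both libraries, a ratio of 1.00 (0.890 to 1.12), and Eif4enif1, which carries eIF4E into the nucleus and to processing bodies, at 11.7 FPKM and 14.3 FPKM, a ratio of 1.22 (1.13 to 1.31). The summed level of Eif4ebp1, Eif4ebp2 and Eif4ebp3 was 1.45 times that of Eif4e in the control library and 1.64 times in the knockout library. For Eif4ebp1 to Eif4e, 1 of 8 pairs chosen after the values were seen, the quotient was 1.18 (1.06 to 1.30). Of these 8 pairs, 3 had intervals that hold 1, with quotients of 1.03 (0.909 to 1.16) for Eif4ebp2 to Eif4e, 0.978 (0.934 to 1.03) for Eif4g1 to Eif4e and 0.969 (0.866 to 1.08) for Eif2b5 to Eif2s1. The phosphorylation that sets the activity of these proteins is not measured by RNA levels.

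Of 19 genes of the mTOR, MNK and S6 kinase inputs to the cap, 3 lay above and 16 below the median gene, with a median difference of 0.06, so that most shared the side of Eif4e. With no filter on low values 10 lay above and 9 below. By the 1.5-fold rule 2 (10.5%) were higher, near the 9.15% of all measured genes, and none was higher under the 3 other scalings. None was lower with the values as deposited, and 1 was lower with scaling without the 50 most abundant genes, where the share of all genes was not counted. Cyfip2, an eIF4E-binding partner of FMRP, was at 2.11 FPKM in the control library and 4.02 FPKM in the knockout library, and Pdcd4, an inhibitor of eIF4A, at 34.7 FPKM and 55.3 FPKM, a ratio of 1.59 (1.51 to 1.68). Tsc1, which restrains mTOR complex 1 with Tsc2, was at 4.73 FPKM and 6.61 FPKM. At the other end Mtor itself was at 5.77 FPKM and 4.07 FPKM, a ratio of 0.705 (0.545 to 0.909), and Deptor, an mTOR inhibitor, at 8.93 FPKM and 6.96 FPKM. Of the known inhibitors named here, Pdcd4 and Tsc1 lay above the median gene, and Deptor and Tsc2 below it. Tsc2 was at 6.26 FPKM in the control library and 6.37 FPKM in the knockout library.

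The eIF5A and eIF6 genes lay near or above the median gene. Eif5a, a hypusine-bearing factor now known mainly for elongation and termination, was at 65.6 FPKM in the control library and 79.0 FPKM in the knockout library, a ratio of 1.21 (1.14 to 1.27). Eif5a2, its second gene, was at 0.969 FPKM and 1.21 FPKM, a ratio of 1.25 (0.990 to 1.59). Eif6, which keeps large subunits from joining too early, was at 9.89 FPKM and 12.4 FPKM, a ratio of 1.25 (1.10 to 1.43). The intervals of all 3 spanned the median ratio.

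**Figure D4:**
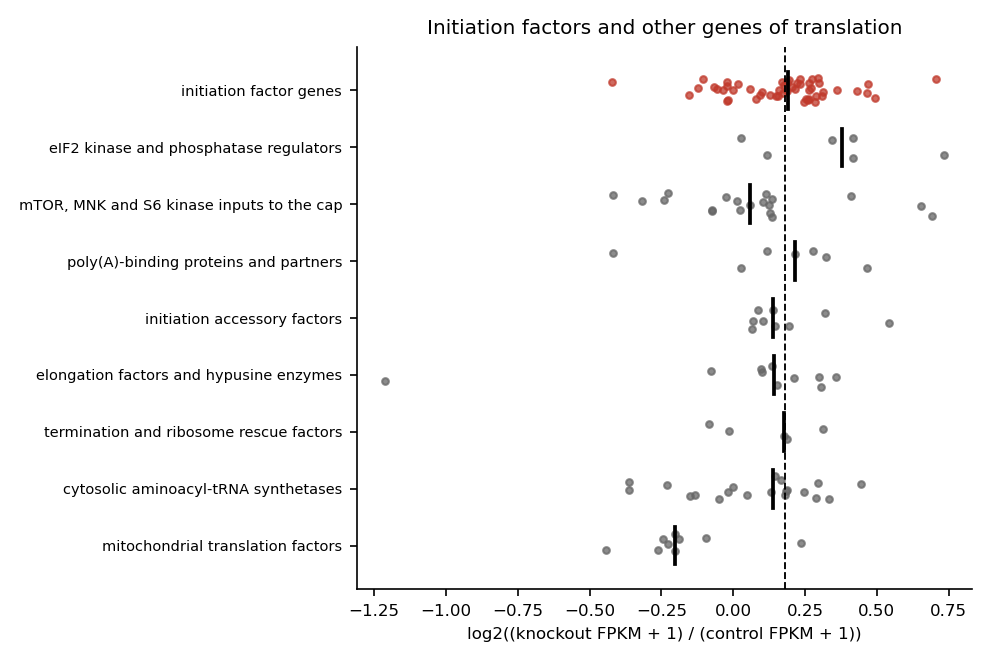
Difference of each measured gene, on the log2(FPKM + 1) scale, for the initiation factor genes (red) and for other lists of translation genes (grey); black bars are list medians and the dashed line is the median gene at 0.18. The mitochondrial factors lie to the left with a median of -0.20, and the point far left is Eef1a2 at -1.21.

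Other genes of the pathway were listed by role. Of 7 poly(A)-binding proteins and partners 4 lay above and 3 below the median gene (median 0.22), from Pabpc4 at 94.5 FPKM in the control library and 70.3 FPKM in the knockout library to Paip2b, an inhibitor of poly(A)-binding protein, at 6.19 FPKM and 8.94 FPKM. Pabpc1, which binds eIF4G and so links the tail to the cap, was at 239 FPKM and 290 FPKM. None of these 7 genes passed the 1.5-fold rule with the values as deposited, and 1 was lower by it under each of the 3 other scalings. The share of all measured genes that were lower under those scalings was not counted. Of 9 accessory factors 3 lay above and 6 below (median 0.14), with Mcts2 at 3.94 FPKM and 6.20 FPKM at the upper end and the helicase Dhx29 at 8.80 FPKM and 9.26 FPKM at the lower end. Of 10 elongation factors and hypusine enzymes 4 lay above and 6 below (median 0.14), and 1 was lower by 2-fold, against 0.744% of all measured genes. That gene was Eef1a2, the elongation factor form of mature muscle, at 58.9 FPKM and 24.8 FPKM, while Eef1a1 was at 2047 FPKM and 2534 FPKM.

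Of 5 termination and rescue factors 2 lay above and 3 below the median gene (median 0.18), from Gspt1 at 15.3 FPKM in the control library and 14.4 FPKM in the knockout library to Etf1 at 35.9 FPKM and 44.8 FPKM. Of 20 cytosolic aminoacyl-tRNA synthetases 8 lay above and 12 below (median 0.14), from Farsb at 4.50 FPKM and 3.27 FPKM to Gars at 41.8 FPKM and 57.3 FPKM. None of these passed the 1.5-fold rule. Of 9 factors of mitochondrial translation 8 lay below the median gene and 1, Mrrf, above it, with a median of -0.20. None passed the 1.5-fold rule with the values as deposited. Under each of the 3 other scalings 1 was lower by it, with no share of all measured genes counted beside it. Tufm, the mitochondrial elongation factor Tu, was at 37.4 FPKM and 27.3 FPKM, a ratio of 0.729 (0.678 to 0.782). Mtif2 and Mtif3, the initiation factors of mitochondria, were at 13.0 FPKM and 11.2 FPKM and at 3.74 FPKM and 2.96 FPKM.

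Cytosolic ribosomal proteins, a list chosen after values were seen, gave another picture. All 77 genes lay above the median gene, with a median difference of 0.49 against 0.19 for the initiation factors, and 17 were higher by the 1.5-fold rule, against 9.15% of all measured genes. That count was 2 under median of ratios and 2 under TMM scaling, against 4.66% and 4.96% of all measured genes. It was 1 without the 50 most abundant genes, against 4.56%. All 77 stayed above the median gene, so the count past the rule depends on the scaling and the side does not. With the values as deposited, their differences ran from 0.30 to 0.90, a range that 8 of the 52 initiation factor genes reached.

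**Figure D5:**
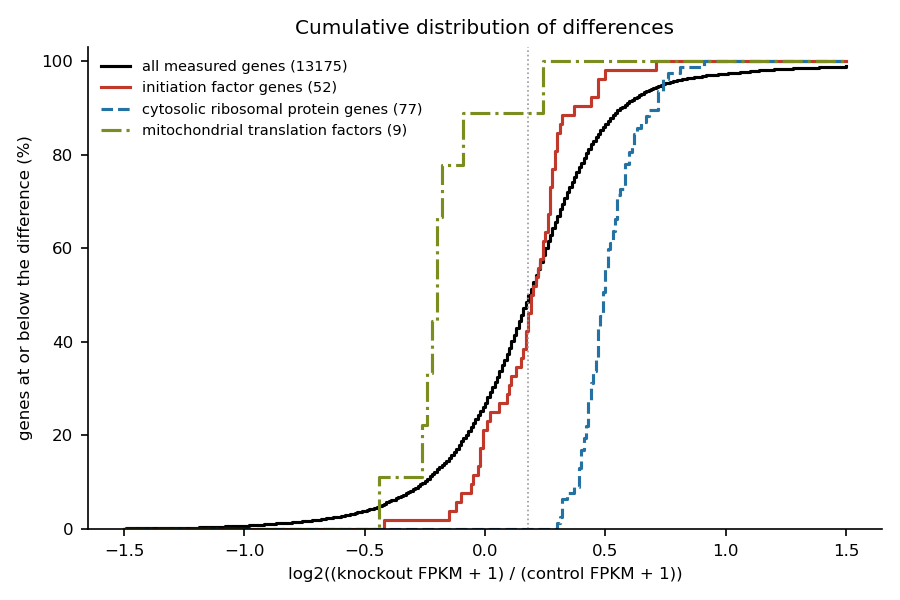
Cumulative share of genes, in percent, at or below each difference on the log2(FPKM + 1) scale, for all 13175 measured genes (black), 52 initiation factor genes (red), 77 cytosolic ribosomal protein genes (blue dashed) and 9 mitochondrial translation factors (green); the dotted line is the median gene. The red line crosses the black one near the median gene, the blue line lies to its right and the green line to its left.

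Some values rest on how reads were assigned. The values of 19 of the 52 genes hold fractions of a read, against 17.9% of genes with recovered reads, namely Eif1, Eif2b4, Eif2d, Eif2s2, Eif2s3x, Eif3a, Eif3c, Eif3h, Eif3j1, Eif3j2, Eif3m, Eif4a1, Eif4a2, Eif4e, Eif4e2, Eif4g1, Eif4g2, Eif5a and Eif5b. Without these 19 genes, 19 of 33 lay above the median gene and the median difference was 0.19. Eif1ad, Eif2ak1, Eif4enif1, Eif5a and Eif5b overlap a measured gene on the opposite strand (Banf1, Aimp2, Sfi1, Gps2 and Rev1), and without a stated strand setting their reads cannot be told apart where they overlap. Small nucleolar RNA genes lie within Eif3a, Eif4a2, Eif4g1 and Eif5 on the same strand.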

How the data were processed

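Hindlimb muscle RNA was sequenced from 1 Srsf2 flox/flox and 1 Srsf2 flox/flox MyoD-Cre sample, and groups were taken from the genotype labels. Gene levels were taken as the FPKM values that the authors deposited, with no further change. The deposited mapping tables gave the read totals. Bowtie 0.12.2 and the mm9 build appear in the submitters' processing notes without a role, but the mapping tables carry GRCm38 chromosome lengths, so GRCm38 was used for coordinates. No source used here names the counting tool, the annotation or the strand setting. Eif3i and Eif5a are listed on scaffolds outside the chromosomes in the table.

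The pseudocount was 1 FPKM, so low genes show smaller differences than their ratios, and fold rules of 2 and 1.5 are rules of size with no test. The members, groups and lists were chosen with earlier results of these data known. The rule for names was every initiation factor gene and, of each other list, up to 3 members at either end of the difference. Mtif2 and Tsc2 were named beside them where they stand for a role. The ribosomal protein list, 8 of the pairs, the count within 1.2-fold and the counting intervals against the median ratio were chosen after values were seen. Starts were taken from RefSeq windows of 250 bases before and 50 after each start.

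Reads were recovered from the FPKM values. In genes whose length equals their span, 1 read fixed the counted reads at 26659452 in the control library (from 462 genes) and 28060573 in the knockout library (from 512 genes). Reads per base were then read as fractions within a relative tolerance of 2e-14, and a denominator longer than 1.1 times the longest annotated transcript was taken as a multiple of a length near an annotated one, with reads in fractions. This gave reads for 12828 of 13175 measured genes (97.4%). Ratios have exact Clopper-Pearson intervals from reads rounded down, and quotients of pairs log-normal ones, at 95%. No molecular identifiers are named in the labels, so reads may be copies of 1 molecule, and the intervals cover counting error only. Where fractions occur, the reads may be off by a whole factor, so a second rule for the length was tried.

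Alternatives were the pseudocount, the filter, 3 scalings and the background of mRNA genes, and, after values were seen, leaving out genes with fractions of a read, the second length rule, and the same settings for the counts of the other lists past the fold rules. The steps were tested on simulated data. Tables were handled with pandas 2.3.3 and numpy 2.4.6 in Python 3.11.15, intervals came from scipy 1.17.1, and plots from matplotlib 3.10.9.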

Additional observations from a re-analysis of the deposited data

How the results depend on the processing

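No paired analysis was possible because there is a single library for each genotype, and for the same reason none could be left out. For the changes given here the cause was not tested, beyond the fact that filters change which genes count. Scaling by median of ratios, by TMM and without the 50 most abundant genes shifted the knockout values by 0.21, 0.19 and 0.22 on the log2 scale. The 41 genes above 0 and 11 below 0 with the values as deposited became 26 and 26, 29 and 23, and 24 and 28. Against the median gene, 36 of 52 genes kept their side under every setting (23 above, 13 below). The 16 that did not were Eif1b, Eif2ak1, Eif2b5, Eif2s1, Eif2s2, Eif3a, Eif3c, Eif3d, Eif3g, Eif3h, Eif3j1, Eif3k, Eif3m, Eif4a3, Eif4ebp1 and Eif5a2.

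The 1 gene higher by the 1.5-fold rule became 2 with a pseudocount of 0.1 FPKM and 0 with a pseudocount of 5 FPKM and under each of the 3 scalings, and the count lower by that rule became 1 with a pseudocount of 0.1 FPKM. With no filter the median gene lay at 0.05, and medians minus the median gene became 0.14 for the initiation factors, 0.13 for eIF3, 0.14 for eIF4 with its binding proteins, 0.0050 for the mTOR list, -0.26 for mitochondrial factors and 0.0849 for synthetases. With a pseudocount of 5 FPKM they became -0.24 for mitochondrial factors and 0.0144 for synthetases. With 5 pyrimidines within 5 bases of the start, the difference between the medians of genes with and without such a start was 0.0297, against 0.08. The other 180 planned and 23 added comparisons of a result with an alternative stayed within set limits. Counts had to stay within 1.5 times, and medians within the interval of the median over genes. For small groups such as eIF1, eIF2, eIF2B and eIF5 that interval was the full range of the members, which is a weak limit. The eIF2B median minus the median gene ran from -0.1446 to 0.0759 within it. For eIF6 and for ratios of 2 genes the limit was the counting interval. The 17 ribosomal protein genes past the 1.5-fold rule did not stay within the limit and numbered 2, 2 and 1 under the 3 scalings. With the second length rule the intervals above, below and spanning the median ratio numbered 11, 17 and 24, against 11, 18 and 23, with Eif4ebp2 moving to the last.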

Other observations

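Besides the 56 genes typed as mRNA, 8 rows of other gene types carry an Eif symbol with a digit. Of these, 1 was measured, Eif4a-ps4, a pseudogene row at 9.99 FPKM in both libraries (9.988 and 9.992), while Eif4a1 and Eif4a2 had ratios of 1.17 and 1.21. Eif3s6-ps1 was at 0.250 and 0.534 FPKM and Eif3s6-ps2 at 0.244 and 0.159 FPKM in the control and knockout libraries. How the authors assigned reads between these rows and their parent genes was not tested.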
